A study of Mus musculus with 31 samples.

Results

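Costimulatory and inhibitory receptors of the T cell surface were followed across 31 mouse Th17 libraries. The set held 7 genes of the 31053 in each of 3 count tables, chosen by name: Icos and Cd28, which give T cells a costimulatory signal, and Ctla4, Pdcd1, Btla, Lag3 and Havcr2, which restrain them. All 7 were present in every table.

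T cells need a costimulatory signal beside that of the antigen receptor, and CD28, engaged by CD80 and CD86, is the classical source of it. CTLA-4 competes with CD28 for the same ligands, whereas ICOS, induced on activated T cells, binds its own ligand ICOSL and signals through phosphoinositide 3-kinase. PD-1 (Pdcd1) binds PD-L1 and PD-L2, BTLA binds HVEM (Tnfrsf14), LAG-3 binds MHC class II, and TIM-3 (Havcr2) binds galectin-9 among other ligands. Th17 cells are IL-17-producing CD4 T cells that drive experimental autoimmune encephalomyelitis (EAE), a mouse model of inflammation of the central nervous system (CNS). Glucocorticoids act through the glucocorticoid receptor (GR, gene Nr3c1), and CYP11A1 makes the first steroid intermediate from cholesterol.

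In the culture experiment, inflammatory Th17 cells were made in vitro from wild-type C57/B6 spleen and draining lymph node and treated for 2 days. The treatments were dexamethasone (Dex, a synthetic glucocorticoid), TGF-β1, or both, beside an untreated control, with 3 libraries in each group. In the other 2 experiments, naive T cells carrying the 2D2 receptor transgene, which recognises a myelin protein, were taken from mice of 1 of 4 genotypes, all on C57/B6. These were CYP11A1 wild type (WT, 4 libraries), CYP11A1 conditional knockout (cKO, 6 libraries), GR WT (5 libraries) and GR cKO (4 libraries). The cells were turned into homeostatic Th17 cells in culture, transferred into Rag1 KO mice, which lack T and B cells of their own but keep myeloid and NK cells, and sorted from the CNS as 2D2+ cells at peak EAE. All CNS groups therefore share the transgene, the homeostatic culture, the transfer and the disease. Per the labels 2000 cells were sorted into each library. The driver of the Cre recombinase is not given in the sources used here, and neither is whether each library had its own recipient or culture. The p-values below measure only the spread among libraries, which may be technical.

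Library totals lay between 2769203 and 4291149 counts in culture, 4322688 and 5118543 in the CYP11A1 experiment and 3552871 and 5623305 in the GR experiment. Levels are CPM, counts scaled to a common library size with edgeR's TMM factors. A group of 13 to 15 predicted, repeat-like genes took between 11.7% and 55.7% of the counts of a library. Cyp11a1 had 0 counts in all 4 CYP11A1 WT libraries and in 5 of 6 cKO libraries (4 counts in cKO replicate 2), so it gave no check of that label. Nr3c1 had 43 to 104 counts in the GR WT libraries and 27 to 53 in the GR cKO libraries, and these ranges overlapped. All 12 T cell markers had counts in every library. They summed to 33614 to 39183 CPM in the CYP11A1 experiment, 15753 to 21110 CPM in the GR experiment and 2981 to 3312 CPM in culture. Trbc2 alone was 25294 to 29971, 11836 to 15672 and 517 to 750 CPM in the same order. The summed myeloid and microglia markers (21 genes) were 87.3 to 119.7 CPM in culture, where Csf1r, which defines macrophages and microglia, was at 0 in all 12 libraries. They were 517 to 1735 CPM in the CYP11A1 experiment and 6482 to 25953 CPM in the GR experiment, so the sorted CNS libraries held myeloid RNA. Beside the T cell sum of the same library, they ran from 6482 against 17180 CPM in GR WT replicate 3 to 24708 against 15753 CPM in GR WT replicate 5. Over all 31 libraries, B cell and dendritic cell markers summed to 19.7 to 258 CPM, neutrophil markers to 2.32 to 66.3 CPM and neural, glial and endothelial markers to 26.2 to 60.7 CPM. Regulatory T cell markers summed to 1224 to 1360.2 CPM in culture, nearly all of it Tnfrsf18 and Il2ra, with Foxp3 at no more than 1.70 CPM. In bulk libraries, fewer cells of a type and less RNA per cell cannot be told apart.

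Cd28, Ctla4 and Icos are neighbours on the plus strand of chromosome 1 in GRCm38 (GENCODE M21): Cd28 at chr1:60716800-60773359, Ctla4 at chr1:60887000-60915832 and Icos at chr1:60977927-61000320. Pdcd1 lies on the minus strand at chr1:94038305-94052553, Btla on the plus strand at chr16:45224315-45257670, Lag3 on the minus strand at chr6:124904361-124911705 and Havcr2 on the plus strand at chr11:46454935-46481255. No annotated exon of another gene overlapped an exon of any of the 7. The preparation keeps no strand information.

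The RefSeq promoter table (GRCm38.p6) matched 4 of the 7 genes, Ctla4, Pdcd1, Btla and Havcr2; Icos, Cd28 and Lag3 were not matched. The 250 bases before the start site of Btla, Pdcd1 and Ctla4 are shown. Btla was called for the combination against control and against Dex, and Pdcd1 and Ctla4 in no culture comparison. None of them passed when Dex was added to control or to TGF-β1 (edgeR adjusted p = 0.574 and 0.25 for Btla). Capitals mark the glucocorticoid receptor half-site AGAACA, or TGTTCT where it lies on the other strand. The Btla window is chr16:45224087-45224336 on the plus strand, the Pdcd1 window chr1:94052554-94052803 on the minus strand and the Ctla4 window chr1:60908775-60909024 on the plus strand, each written 5′ to 3′ on the gene's strand. Start sites are those of RefSeq and can differ from the GENCODE gene starts above. The Ctla4 window lies within the GENCODE span of Ctla4, and the Btla window ends just past the GENCODE start of Btla.
Btla: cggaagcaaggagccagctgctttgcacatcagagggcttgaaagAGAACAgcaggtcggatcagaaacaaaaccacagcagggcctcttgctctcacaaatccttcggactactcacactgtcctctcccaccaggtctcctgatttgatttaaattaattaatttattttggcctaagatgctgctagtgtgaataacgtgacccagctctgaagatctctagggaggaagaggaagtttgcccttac
Pdcd1: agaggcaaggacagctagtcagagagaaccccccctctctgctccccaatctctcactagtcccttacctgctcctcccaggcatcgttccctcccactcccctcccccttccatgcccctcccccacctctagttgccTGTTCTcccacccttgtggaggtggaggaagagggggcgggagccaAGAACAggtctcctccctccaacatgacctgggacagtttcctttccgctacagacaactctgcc
Ctla4: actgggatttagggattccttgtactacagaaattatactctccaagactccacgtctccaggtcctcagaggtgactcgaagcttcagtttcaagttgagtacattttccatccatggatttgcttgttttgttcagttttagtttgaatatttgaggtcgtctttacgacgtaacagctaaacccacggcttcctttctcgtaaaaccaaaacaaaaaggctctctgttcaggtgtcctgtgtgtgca
Btla had 1 half-site, 205 to 200 bases before its start. Pdcd1 had 1 on each strand, 65 to 60 and 111 to 106 bases before its start. Ctla4 and Havcr2 had none in this window. On either strand, 16.1% of the 32851 mouse promoter windows of this length hold the half-site. An AP-1 site (TGANTCA) stood in the Havcr2 window and in 6.75% of all windows. The SMAD box CAGAC stood in the Pdcd1 and Havcr2 windows and in 42.2% of all. The NFAT core GGAAAA, as TTTTCC, stood in the Ctla4 window and in 20.4% of all. None of these 4 motifs overlapped another in the 4 windows. A match of letters is a description and not a binding site.

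Per kilobase of exon, control cultures held Ctla4 as the most abundant of the 7 messages, at 73.8 ± 12.2 CPM per kb (mean ± SD, n = 3). Lag3 followed at 49.6 ± 3.41, Btla at 26.4 ± 2.06, Pdcd1 at 24.1 ± 0.57, Icos at 15.9 ± 1.32 and Cd28 at 9.45 ± 0.878 CPM per kb. Havcr2 was near the limit of detection at 0.517 CPM per kb. Btla and Pdcd1 overlapped between libraries, and the other neighbours in this order did not. With Dex, Icos reached 36.0 ± 2.07 CPM per kb and overlapped Lag3 at 39.4 ± 8.45, which moved it from the fifth place to the third. With both agents, Icos at 31.5 ± 0.947 and Lag3 at 30.5 ± 4.28 CPM per kb again overlapped, and only Ctla4 stood above them.

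**Figure D1:**
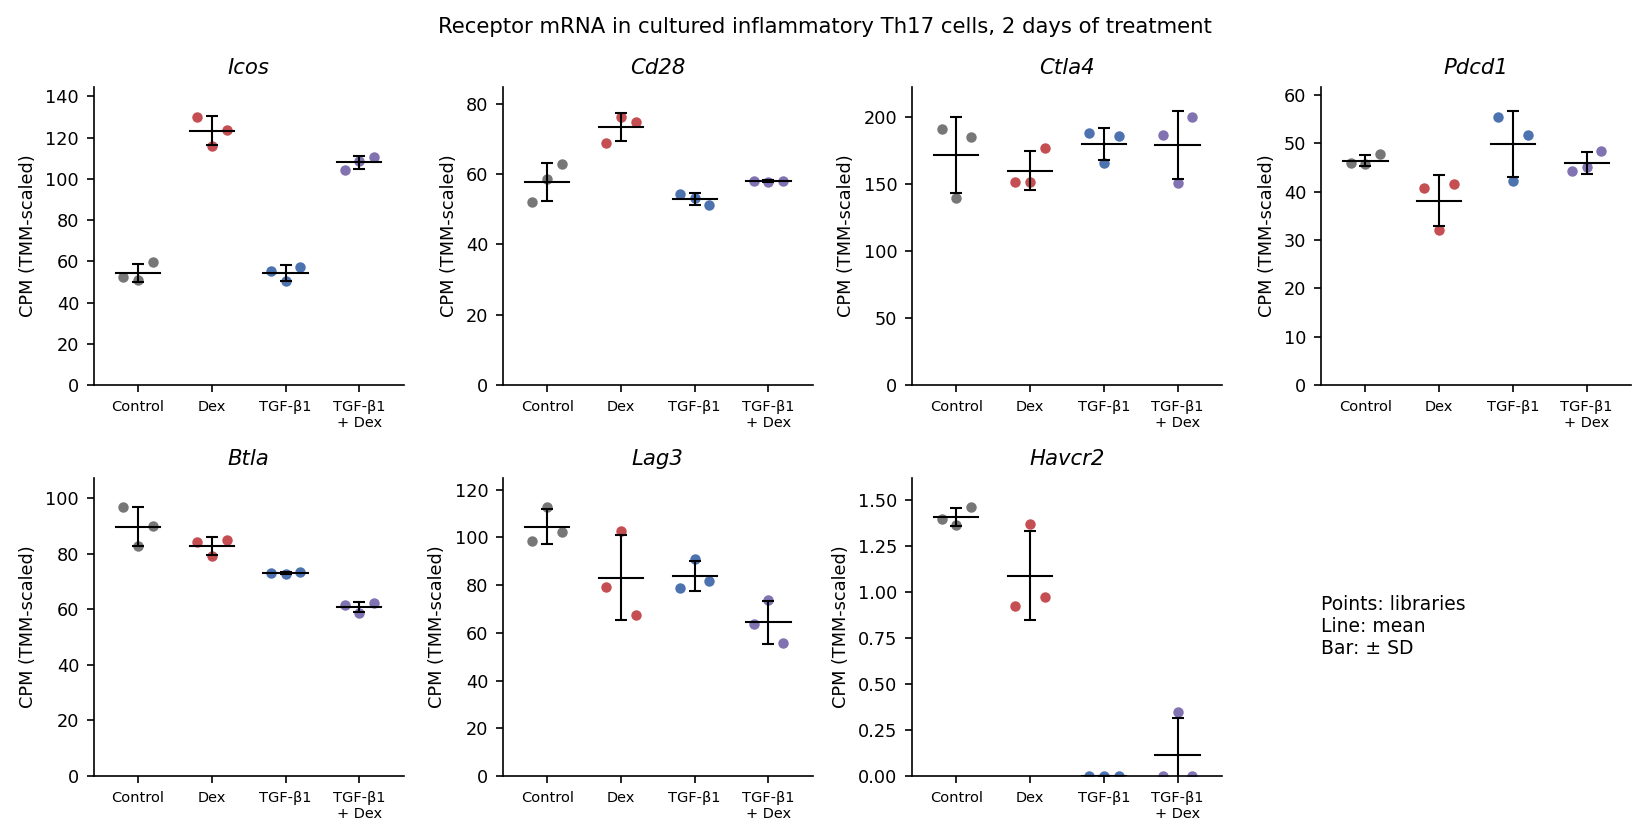
Each panel plots 1 receptor in the 4 culture groups, with TMM-scaled CPM on a linear axis from 0. Points are libraries, the line is the mean and the bar ± SD. Icos in the 3 Dex and 3 TGF-β1 + Dex libraries lies between 104 and 130.2 CPM, above the 50.3 to 59.6 CPM of the 6 libraries without Dex.

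Icos rose with Dex, whether or not TGF-β1 was present. It was 52.5, 51.2 and 59.6 CPM in the control libraries and 130.2, 116 and 124 CPM with Dex. With TGF-β1 alone it was 55.5, 50.3 and 57.5 CPM, and with both agents 104, 109 and 111 CPM. Every library with Dex was above every library without it. Against control the increase was 2.26-fold with Dex (log2 fold change 1.18 ± 0.085 SE, edgeR adjusted p = 1.76e-05). With both agents it was 1.98-fold (0.99 ± 0.085, edgeR adjusted p = 1.48e-05). Against TGF-β1 alone, adding Dex raised Icos 1.99-fold (0.99 ± 0.086, edgeR adjusted p = 0.000235). TGF-β1 alone left Icos at -0.0044 ± 0.089 on the log2 scale (95% interval -0.20 to 0.19, adjusted p = 0.996 by edgeR). The interval leaves room for a difference of up to 0.20 in either direction.

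Among all 10332 genes tested in culture, 1.83% passed an adjusted p of 0.05 for Dex against control (0.919% higher and 0.910% lower). Of the 6 receptors tested, Icos alone passed. TGF-β1 against control called 3.29% of genes and none of the 6 receptors by edgeR, with Btla and Lag3 under an unadjusted p of 0.05 (15.0% of all genes) and none called by DESeq2 or limma voom. The combination called 6.25% of genes against control (3.12% higher and 3.14% lower) and 3 of the 6 receptors, Icos higher and Btla and Lag3 lower. Adding Dex to TGF-β1 called 0.532% of genes and, of the receptors, Icos. Adding TGF-β1 to Dex called 2.62% of genes and, of the receptors, Btla. Comparisons with the control share its 3 libraries.

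Cd28, the other costimulatory receptor, did not pass in any culture comparison. It was 52.1, 58.6 and 62.8 CPM in control, 68.8, 76.3 and 74.8 with Dex, 54.4, 53.2 and 51.1 with TGF-β1, and 58.2, 57.7 and 58.1 CPM with both. The Dex libraries were above all others. The difference between Dex and control was 0.34 ± 0.086 on the log2 scale (edgeR adjusted p = 0.0708), and that between both agents and Dex was -0.34 ± 0.086 (edgeR adjusted p = 0.0601). With a mean count filter of 50 these gave edgeR adjusted p-values of 0.0416 and 0.0489, and with libraries scaled by T cell markers 0.0132 and 0.0427. The T cell marker sum used for this scaling was itself lower with Dex, at 2981 to 3090 CPM against 3225 to 3312 CPM in control. Over the alternatives, the adjusted p ran from 0.0132 to 0.223 for Dex and from 0.0217 to 0.221 for both agents against Dex. The Cd28 call thus depended on the filter and the scaling.

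None of the inhibitory receptors passed with Dex alone. Ctla4, the most abundant of them, was 191, 139.6 and 185 CPM in control, 152, 152 and 177 with Dex, 188, 166 and 186 with TGF-β1 and 187, 151 and 201 with both. All 4 groups overlapped, and its Dex difference was -0.10 ± 0.13 on the log2 scale (95% interval -0.38 to 0.17, edgeR adjusted p = 0.817). Pdcd1 was 45.8, 45.8 and 47.7 CPM in control, 40.7, 32.0 and 41.6 with Dex, 55.5, 42.2 and 51.8 with TGF-β1, and 44.2, 45.1 and 48.4 with both. The Dex and control libraries of Pdcd1 did not overlap, but at -0.29 ± 0.12 on the log2 scale the difference did not pass (edgeR adjusted p = 0.333). With both agents it was at -0.014 (95% interval -0.28 to 0.25, edgeR adjusted p = 0.98). Non-overlap of 3 against 3 libraries was common: for Dex against control it was found in 19.3% of all genes tested, and in 3 of the 6 receptors, Icos, Cd28 and Pdcd1. The combination gave 3 of 6 against control (23.6% of genes), 4 of 6 against TGF-β1 (15.2%) and 4 of 6 against Dex (18.4%).

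Btla fell with the combination. It was 96.6, 82.6 and 89.8 CPM in control, 84.2, 79.1 and 84.9 with Dex, 72.9, 72.6 and 73.5 with TGF-β1 and 61.6, 58.8 and 62.3 CPM with both. The 4 groups stood in steps, with overlap between control and Dex alone. Against control the combination lowered Btla 1.47-fold (-0.55 ± 0.078, edgeR adjusted p = 0.000777), and against Dex 1.36-fold (-0.44 ± 0.078, edgeR adjusted p = 0.00797). Dex alone gave -0.11 ± 0.076 (edgeR adjusted p = 0.574). TGF-β1 alone gave -0.29 ± 0.077 (edgeR adjusted p = 0.0613), which ranged from 0.0187 to 0.223 over the alternatives. It passed without control replicate 2 (0.0467) and with scaling by T cell markers other than Trac and Trbc2 (0.0187). For TGF-β1 against control, 21.0% of the genes tested and 2 of the 6 receptors tested (Btla and Lag3) had libraries that did not overlap.

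Lag3 also fell with the combination, by 0.71 ± 0.14 on the log2 scale (1.63-fold, edgeR adjusted p = 0.00909). Its libraries were 98.7, 113 and 102 CPM in control, 79.3, 103 and 67.6 with Dex, 79.0, 90.8 and 81.7 with TGF-β1, and 63.6, 73.8 and 55.8 with both. The lowest control library was above the highest TGF-β1 library, and the Dex libraries spread across both. Without TGF-β1 + Dex replicate 3, the lowest of the 12, the difference was -0.61 with an edgeR adjusted p of 0.0507. Dex alone gave -0.33 ± 0.14 (edgeR adjusted p = 0.328) and TGF-β1 alone -0.32 ± 0.14 (edgeR adjusted p = 0.304). The summed NK and CD8 T cell markers were 136 to 153 CPM in control and 36.1 to 86.7 CPM with both agents, with no overlap. They were also below every control library with Dex alone (71.3 to 105 CPM) and with TGF-β1 alone (65.4 to 94.5 CPM). Most of that sum was Nkg7, while Ncr1 was at 0 in all 12 libraries and Cd8a at no more than 0.487 CPM. The part of this in the Lag3 result was not tested.

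Havcr2 was barely detected in culture and was removed by the low-count filter there. Its counts were 4, 5 and 6 in control, 3, 5 and 3 with Dex, 0 in all 3 libraries with TGF-β1, and 0, 1 and 0 with both. The libraries without TGF-β1 held 3 counts or more, and those with it 1 or fewer. Summed over the group, control had 15 counts (1.43 CPM of unscaled counts) and TGF-β1 had 0. With TGF-β1 set at a floor of 3 counts over the group the ratio of control to TGF-β1 was 4.53, and the 95% counting interval of the ratio began at 3.25. With both agents 1 count remained, a ratio of control to combination of 15.1 with a 95% counting interval of 2.33 to 637. Control against Dex gave a ratio of 1.29 (0.553 to 3.10). These intervals and floors cover counting error only. Fitted without the low-count filter, Havcr2 did not pass for TGF-β1 (edgeR adjusted p = 0.0921) or for both agents (edgeR adjusted p = 0.198).

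**Figure D2:**
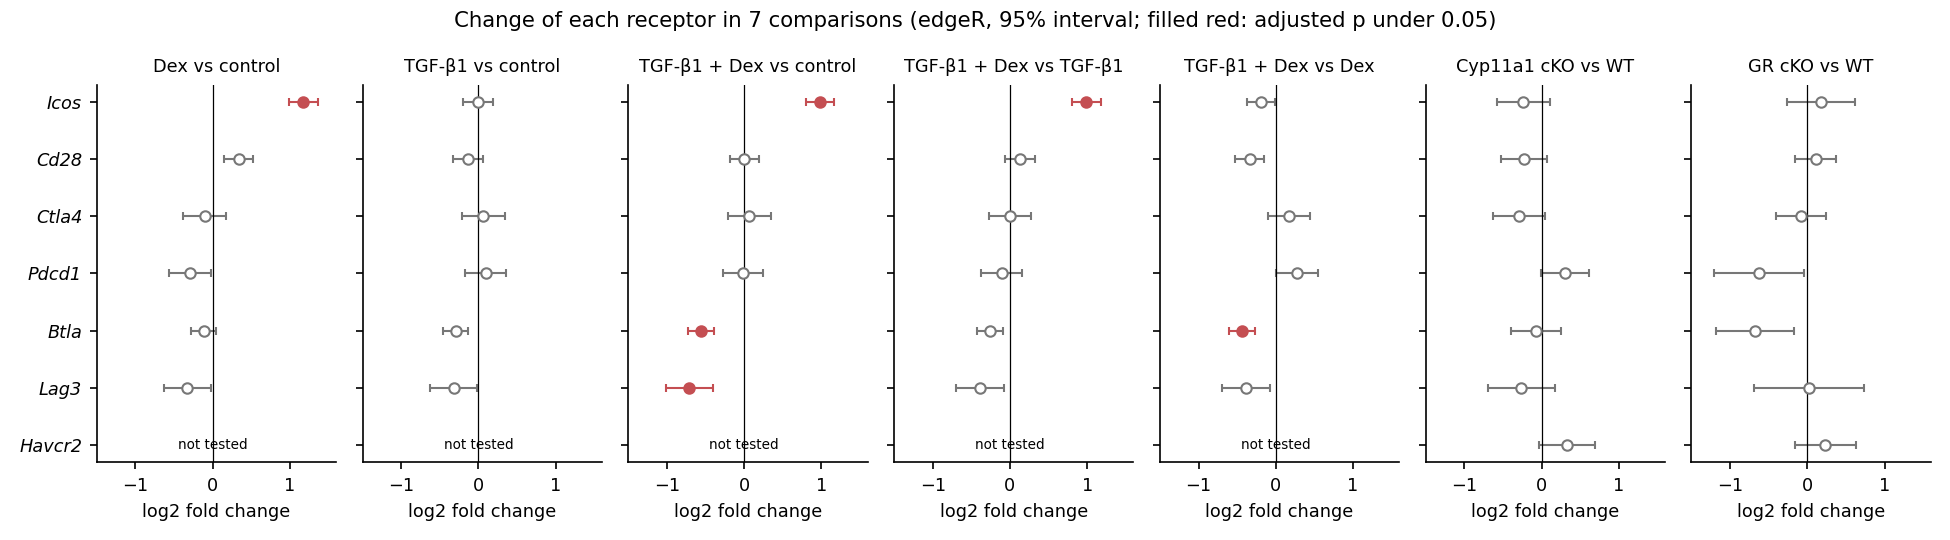
Log2 fold changes of the 7 receptors (rows) in 7 comparisons (panels), with 95% intervals. Filled red points passed an edgeR adjusted p of 0.05 and open grey points did not. Icos passed in the 3 panels that add Dex to control, add both agents to control or add Dex to TGF-β1, and no receptor passed in either genotype panel.

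The test of whether Dex acted differently with TGF-β1 present called 0 of 10332 genes by edgeR, with 552 under an unadjusted p of 0.05 (5.34%), 6 called by DESeq2 and 0 by limma voom. None of the 6 receptors passed it by edgeR, DESeq2 or limma voom, and none had an unadjusted p under 0.05. For Icos the difference of the Dex effects was -0.19 ± 0.12 (95% interval -0.45 to 0.075, edgeR adjusted p = 0.938), for Cd28 -0.20 ± 0.12 (adjusted p = 0.934) and for Btla -0.15 ± 0.11 (adjusted p = 0.954).

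Ratios of counts within a library do not depend on the scaling between libraries. The ratio of Icos to Ctla4 counts was 0.321 ± 0.0465 in control (SD, n = 3), 0.774 ± 0.0798 with Dex, 0.302 ± 0.00689 with TGF-β1 and 0.610 ± 0.0952 with both. Icos to Pdcd1 was 1.17 ± 0.0693, 3.27 ± 0.329, 1.10 ± 0.0963 and 2.35 ± 0.0624 in the same order. Icos to Cd28 was 0.944 ± 0.0664, 1.69 ± 0.189, 1.03 ± 0.0897 and 1.86 ± 0.0587. In each of these, the libraries with Dex lay above all libraries without it. Icos to Btla was 0.609 ± 0.0610 in control and 0.746 ± 0.0465 with TGF-β1, against 1.49 ± 0.0477 with Dex and 1.77 ± 0.0776 with both. Icos to Lag3 ran from 0.455 to 0.704 without Dex and from 1.13 to 1.98 with it. For these ratios no test was run. Cd28 gave such a separation against Btla, at 0.817 to 0.982 with Dex and 0.540 to 0.746 without it, and against Lag3, at 0.744 to 1.11 and 0.521 to 0.689. It gave none against Ctla4 or Pdcd1. Its ratio to Ctla4 was 0.344 ± 0.0739 in control and 0.459 ± 0.0407 with Dex, but 0.327 ± 0.0483 with both. Btla and Lag3 are the receptors that were lower with the combination.

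**Figure D3:**
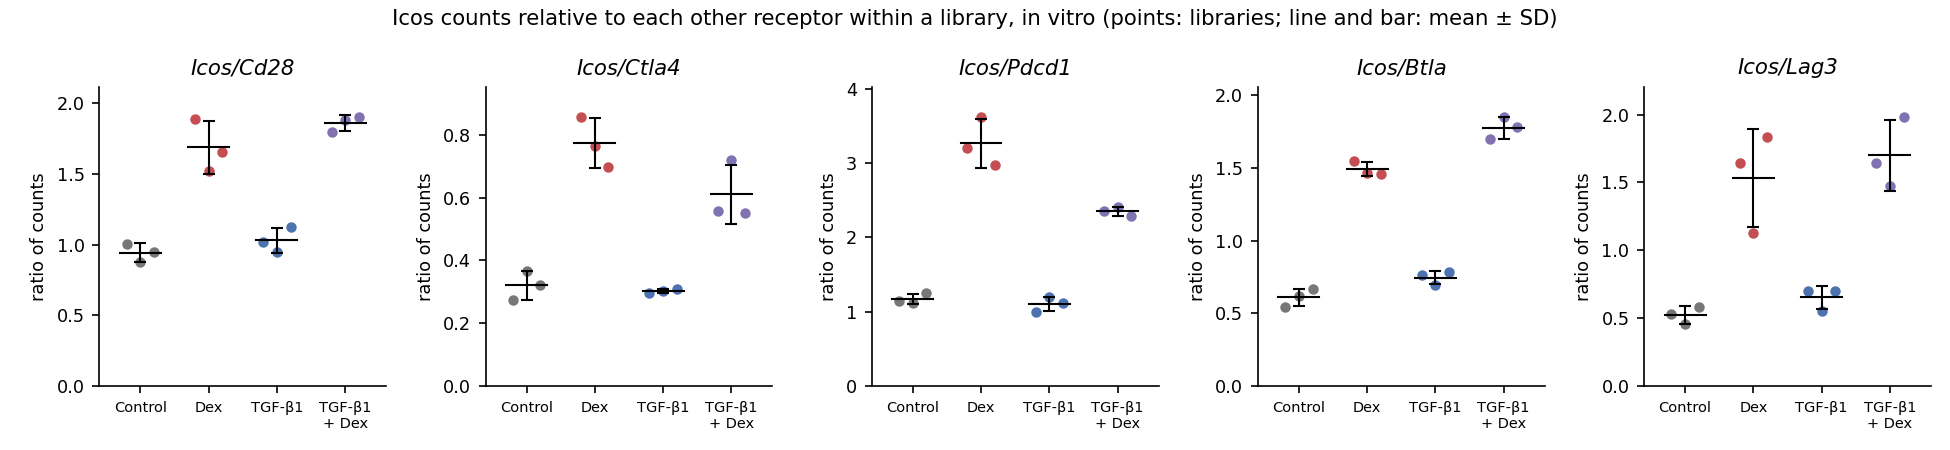
Counts of Icos divided by those of Cd28, Ctla4, Pdcd1, Btla and Lag3 in the same library (linear axes from 0) in the 4 culture groups. Points are libraries, line and bar the mean ± SD. In every panel the 6 libraries with Dex lie above the 6 without it, as for Icos to Ctla4 at 0.552 to 0.858 against 0.274 to 0.367.

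In cells sorted from the CNS, none of the 7 receptors differed by genotype past the threshold in either experiment. For CYP11A1 cKO against WT, 0.178% of 10125 genes passed. No receptor was called by edgeR, DESeq2 or limma voom, and none had an edgeR unadjusted p under 0.05 (8.0% of genes). Non-overlapping libraries were found in 1.97% of genes and in none of the 7. For GR cKO against WT, edgeR called 0 of 10597 genes, with 870 under an unadjusted p of 0.05 (8.21%), 3 called by DESeq2 and 0 by limma voom. Of the 7 receptors, Pdcd1 and Btla were under an unadjusted p of 0.05, none was called by edgeR, DESeq2 or limma voom, and none had libraries that did not overlap (2.25% of all genes).

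Levels in the CNS libraries were ordered otherwise than in culture, though the tables were scaled separately and not tested against each other. Per kilobase, CYP11A1 WT libraries held Lag3 at 79.0 ± 22.3, Ctla4 at 68.5 ± 16.3 and Pdcd1 at 56.4 ± 7.60 CPM per kb (n = 4), and each overlapped the next between libraries. Icos followed at 33.7 ± 9.16, Cd28 at 12.3 ± 2.43 and Havcr2 at 7.80 ± 1.54 CPM per kb. Btla, the third in control cultures, was the lowest at 3.19 ± 0.434 CPM per kb. It was also the lowest in CYP11A1 cKO (3.03 ± 0.429), GR WT (2.88 ± 0.549) and GR cKO (1.80 ± 0.506). In GR WT the order was Lag3, Ctla4, Pdcd1, Icos, Havcr2, Cd28 and Btla, at 76.5 ± 36.6, 43.2 ± 8.02, 38.4 ± 13.7, 20.9 ± 6.06, 10.8 ± 1.73, 8.93 ± 1.16 and 2.88 CPM per kb. Each of these overlapped the next between libraries, except that Cd28 lay above Btla in all 5. The GR WT libraries held a myeloid and microglia marker sum of 6482 to 24708 CPM. The part of myeloid RNA in this order was not tested. The ratio of Cd28 to Btla counts was 0.650 ± 0.0951 in control cultures and 6.99 ± 1.13 in CYP11A1 WT.

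**Figure D4:**
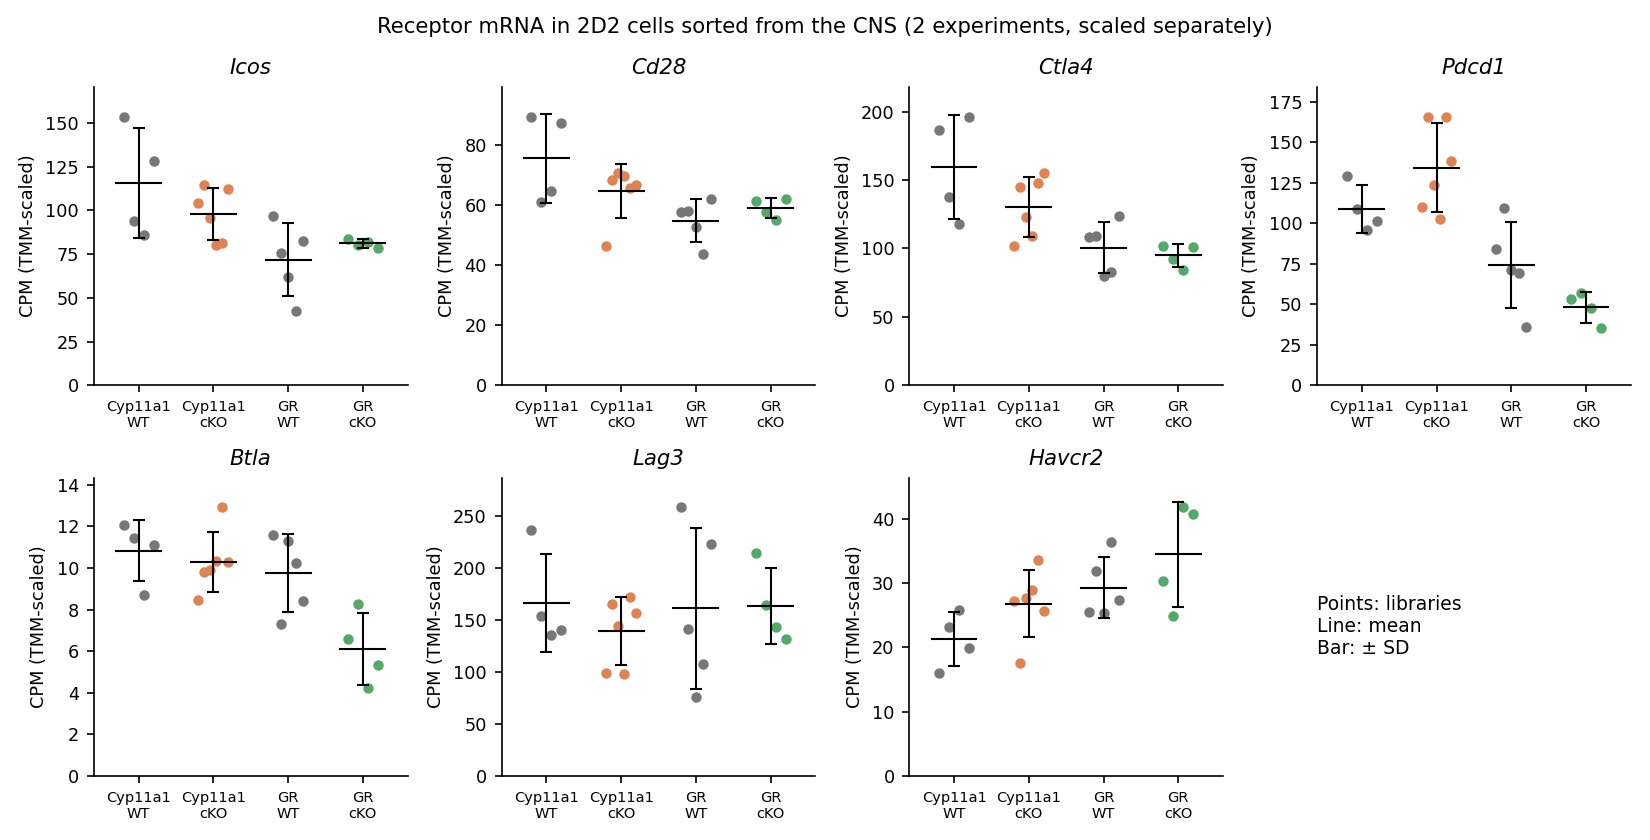
TMM-scaled CPM of each receptor in the 4 CNS groups (linear axes from 0), with points for libraries, line for the mean and bar for ± SD. WT and cKO libraries overlap in all 7 panels for both genotypes, with the 4 GR cKO libraries of Pdcd1 between 35.1 and 56.9 CPM against 36.1 to 109 in GR WT. The 2 experiments were scaled separately.

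Icos in the CYP11A1 experiment was 154, 93.7, 86.1 and 129 CPM in WT and ran from 79.9 over a median of 99.8 to 115 CPM in cKO. WT replicates 1 and 4 were above all cKO libraries and the other WT libraries lay among them. The difference was -0.24 ± 0.16 (95% interval -0.58 to 0.11, edgeR adjusted p = 0.782). Without WT replicate 1 it was -0.064, and without WT replicate 3 -0.36. Ctla4 had the same high WT libraries, at 187, 137, 118 and 196 CPM against 102 to 155 (median 134) in cKO, with a difference of -0.29 ± 0.16 (edgeR adjusted p = 0.717). Foxp3, which defines regulatory T cells, was 59.2, 14.1, 9.22 and 42.9 CPM in these WT libraries and 3.20 to 26.7 CPM in cKO. Replicates 1 and 4 were thus also the highest in Foxp3. The 7 regulatory T cell markers summed to 253 to 355 CPM in WT and 223 to 334 CPM in cKO, and their part in the Icos and Ctla4 values was not tested.

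Pdcd1 was 129, 109, 95.9 and 101 CPM in CYP11A1 WT and 103 to 166 (median 131) in cKO, at 0.30 ± 0.14 on the log2 scale (95% interval -0.0073 to 0.61, edgeR adjusted p = 0.644). Havcr2 was 16.1, 23.2, 25.7 and 19.9 CPM in WT and 17.6 to 33.5 (median 27.4) in cKO, at 0.33 ± 0.17 (edgeR adjusted p = 0.691). TIM-3 is also made by microglia and other myeloid cells. The myeloid and microglia marker sum was 517 to 814 CPM in CYP11A1 WT and 872 to 1735 CPM in cKO, with no overlap. Csf1r, one of its markers, was 13.3 to 20.5 against 24.7 to 31.8 CPM. Other markers of this sum overlapped, such as P2ry12 at 4.65 to 11.4 CPM in WT and 2.77 to 11.3 CPM in cKO. Lyz2 overlapped too, at 9.74 to 26.2 against 14.1 to 174 CPM. With this sum as a covariate, Pdcd1 was at -0.037 (edgeR adjusted p = 0.965), Havcr2 at 0.71 (adjusted p = 0.263) and Ctla4 at -0.79 (adjusted p = 0.114). Icos was then at -0.57 (edgeR adjusted p = 0.298), Cd28 at -0.50 (0.325), Lag3 at -0.67 (0.355) and Btla at -0.28 (0.664). Since the sum separates the genotypes, such values rest on differences within each. The NK and CD8 T cell marker sum, 470 to 887 CPM in WT and 851 to 1370.5 CPM in cKO, was again mostly Nkg7.

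The other receptors of the CYP11A1 experiment did not pass either. Cd28 was 89.3, 60.8, 64.5 and 87.2 CPM in WT and 46.4 to 70.5 (median 67.5) in cKO (-0.22 ± 0.14, edgeR adjusted p = 0.764). As with Icos and Ctla4, WT replicates 1 and 4, the highest in Foxp3, were above all cKO libraries. The part of the regulatory T cell markers in this was not tested. Lag3 was 236, 154, 136 and 140.4 CPM in WT and 98.2 to 173 (median 150.5) in cKO (-0.26 ± 0.20, edgeR adjusted p = 0.809). Its highest library was again WT replicate 1, and without it the difference was -0.042 for Lag3 and -0.13 for Cd28. Btla was 12.1, 11.4, 8.70 and 11.1 CPM in WT and 8.46 to 12.9 (median 10.1) in cKO (-0.070 ± 0.15, edgeR adjusted p = 0.951).

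In the GR experiment the low values lay in Pdcd1 and Btla. Pdcd1 was 84.3, 109, 71.2, 69.3 and 36.1 CPM in WT and 52.9, 56.9, 47.5 and 35.1 CPM in cKO. The 4 highest libraries were all WT, and WT replicate 5 lay next to the lowest cKO library. The difference was -0.63 ± 0.27 (95% interval -1.21 to -0.040, unadjusted p = 0.0385, edgeR adjusted p = 0.58). Btla was 11.6, 7.30, 11.3, 10.2 and 8.41 CPM in WT and 6.57, 8.25, 4.25 and 5.32 CPM in cKO, from 20 to 64 counts per library. WT replicate 2 lay within the cKO range and the other WT libraries above it. The difference was -0.68 ± 0.23 (unadjusted p = 0.013, edgeR adjusted p = 0.58).

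Myeloid RNA varied widely here. The marker sum was 6482 to 24708 CPM in GR WT (median 11608) and 14439 to 25953 CPM in GR cKO (median 22671). Apoe alone, one of its markers, ran from 494 to 12260 CPM over the GR libraries. Csf1r was highest in WT replicate 5, at 700 CPM, and was 620 CPM in cKO replicate 3. WT replicate 5, the WT library with the least Pdcd1, had the largest sum in its group. WT replicate 1, at 22676 CPM, had nearly as large a sum with Pdcd1 at 84.3 CPM. In cKO, replicates 3 and 4 had the largest sums, at 25953 and 25380 CPM, and the least Pdcd1, at 47.5 and 35.1 CPM. With the sum as a covariate, Pdcd1 was at -0.47 (edgeR adjusted p = 1) and Btla at -0.57 (edgeR adjusted p = 1). With libraries scaled by T cell markers they were at -0.70 and -0.78 (edgeR adjusted p = 0.541 for both). The regulatory T cell marker sum was 251 to 328 CPM in GR WT and 186 to 237 CPM in GR cKO, with no overlap. Tnfrsf18, one of its markers, averaged 167 ± 42.9 CPM in WT and 119 ± 22.0 CPM in cKO. Foxp3 went the other way on average. It was 34.1, 13.6, 14.5, 14.1 and 53.6 CPM in WT and 36.3, 19.1, 27.4 and 32.2 CPM in cKO, and the groups overlapped. The NK and CD8 T cell marker sum was 312 to 646 CPM in GR WT (median 495) and 248 to 404 CPM in GR cKO (median 285), with overlap. The part of these markers in the receptor values was not tested.

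**Figure D5:**
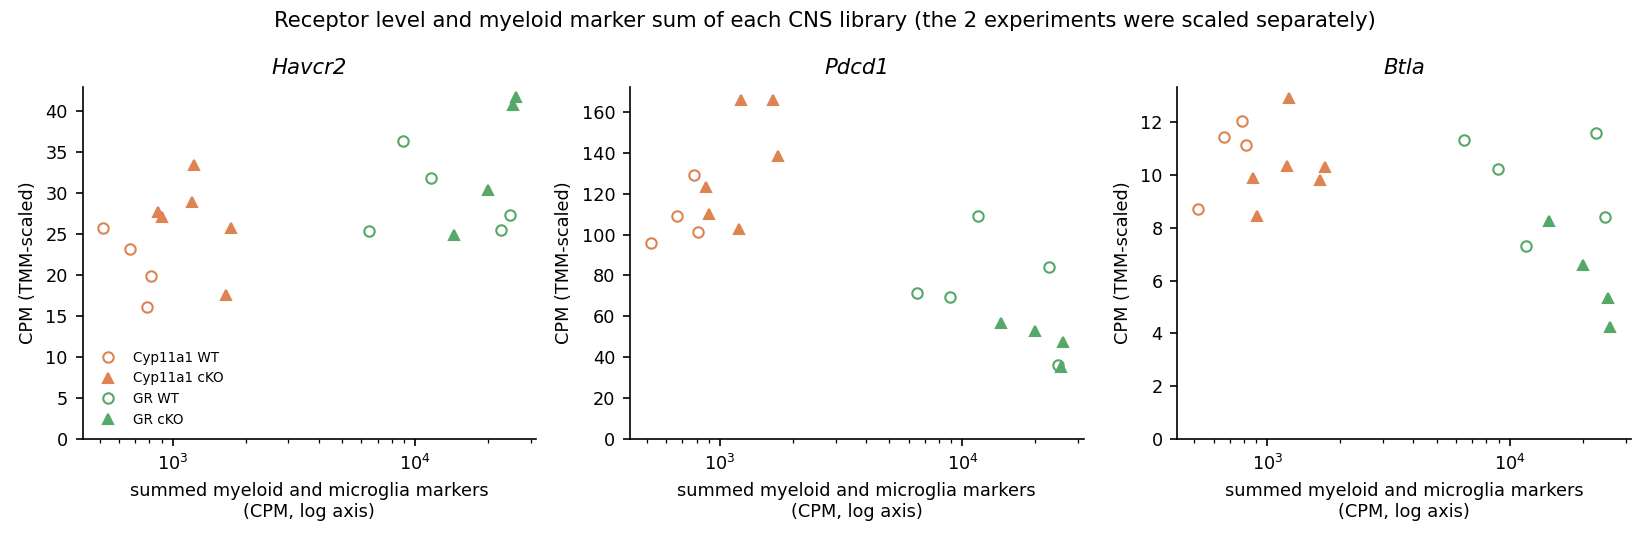
CPM of Havcr2, Pdcd1 and Btla (linear axes from 0) against the summed CPM of the 21 myeloid and microglia markers (log axis) in the 19 CNS libraries, with WT as open circles and cKO as filled triangles. The GR libraries, at 6482 CPM or more, lie to the right of the CYP11A1 libraries, at 1735 CPM or less. Among GR libraries, those lowest in Pdcd1, at 35.1, 36.1 and 47.5 CPM, have the largest sums, at 25380, 24708 and 25953 CPM. The next largest sum, 22676 CPM, stands with Pdcd1 at 84.3 CPM.

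Icos was steady in GR cKO, at 83.9, 80.0, 81.9 and 78.5 CPM, and spread in GR WT, at 96.9, 75.4, 62.0, 42.2 and 82.4 CPM. The cKO values lay inside the WT range (0.18 ± 0.20, 95% interval -0.26 to 0.62, edgeR adjusted p = 0.77). Cd28 was 43.5 to 62.0 CPM in WT and 54.9 to 62.0 in cKO (0.11 ± 0.12, edgeR adjusted p = 0.76), and Ctla4 80.1 to 123 CPM in WT and 84.2 to 102 in cKO (-0.084 ± 0.15, edgeR adjusted p = 0.863). Lag3 varied widely within GR WT, at 258, 141, 75.9, 108 and 224 CPM. Its cKO libraries, at 215, 165, 144 and 132 CPM, lay inside that range (0.023 ± 0.32, edgeR adjusted p = 0.989). The myeloid marker sum in the same WT libraries was 22676, 11608, 6482, 8898 and 24708 CPM, so that both WT libraries high in Lag3 were also those with the largest sums. In cKO it was 19962, 14439, 25953 and 25380 CPM, and the libraries with the largest sums had the least Lag3. With the sum as a covariate Lag3 was at -0.28 (edgeR adjusted p = 1), and leaving out 1 library at a time gave -0.16 to 0.26, so that its direction was not settled. Havcr2 was 25.4 to 36.3 CPM in WT and 24.9 to 41.7 in cKO (0.23 ± 0.18, edgeR adjusted p = 0.662).

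The 2 genotype effects were set against each other in a joint fit of the 19 CNS libraries, in which each effect was taken within its own experiment. edgeR called 2 of 11269 genes (0.0177%) and none of the 7 receptors, with Pdcd1 and Btla under an unadjusted p of 0.05 (11.8% of genes) and no receptor called by DESeq2 or limma voom. For Pdcd1 the GR effect minus the CYP11A1 effect was -0.92 ± 0.31 (95% interval -1.58 to -0.26, unadjusted p = 0.00875, edgeR adjusted p = 0.329). For Btla it was -0.59 ± 0.26 (edgeR adjusted p = 0.407). Icos at 0.42 ± 0.27 and Cd28 at 0.34 ± 0.19 had adjusted p-values by edgeR of 0.544 and 0.475.

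Genes around the receptors were taken from 5 lists. Against control, edgeR called 1.83% of all genes tested with Dex (0.919% higher and 0.910% lower) and 3.29% with TGF-β1. With both agents it called 6.25% (3.12% higher and 3.14% lower). The counts called in each list stand beside these shares and were not tested against them. Of 13 ligand genes, 8 were tested in culture. With both agents 1 was higher and 3 lower than control, beside a median of -0.13 over the list and 0.0011 over all genes. The higher one, Cd80, a ligand of CD28 and CTLA-4, was at 1.80 ± 0.699 CPM in control and 6.08 ± 2.76 CPM with both (n = 3, edgeR adjusted p = 0.0448); it was named after its values were seen. Pdcd1lg2, which encodes PD-L2, fell by 1.35 ± 0.21 on the log2 scale with Dex (edgeR adjusted p = 0.00633) and by 0.88 ± 0.20 with both (edgeR adjusted p = 0.0212). Lgals9, encoding galectin-9, was 93.0 ± 6.21 CPM in control and 68.7 ± 8.85 CPM with both (-0.43 ± 0.12, edgeR adjusted p = 0.046). Lgals3, encoding galectin-3, fell by 0.66 ± 0.14 (edgeR adjusted p = 0.0139). Dex called 1 of the 8 and TGF-β1 none.

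All 22 genes of receptor-proximal signalling were tested in culture. Dex lowered 2 of them (0.910% of all genes) and raised none (0.919% of all genes). Among them Lcp2, encoding the adaptor SLP-76, fell by 0.69 ± 0.11 on the log2 scale (edgeR adjusted p = 0.0056). With both agents 3 were higher and 2 lower. Pik3r1, a regulatory subunit of phosphoinositide 3-kinase, went from 8.59 ± 2.71 to 16.0 ± 0.845 CPM (edgeR adjusted p = 0.016). Tec was raised by 0.80 ± 0.19 and Malt1 by 0.82 ± 0.14 (edgeR adjusted p = 0.0269 and 0.00313). Lcp2 fell by 0.78 ± 0.11 (edgeR adjusted p = 0.000643). The list's median was 0.058 with both and -0.0037 with Dex. TGF-β1 alone raised 1 and lowered 1 of the 22: Malt1 was at 0.67 ± 0.14 (edgeR adjusted p = 0.0192) and Lcp2 at -0.49 ± 0.11 (edgeR adjusted p = 0.0207).

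Of 19 transcription factors known to act on these receptor genes or in T cell activation, 13 were tested in culture. Dex lowered 2: Nr4a1 by 0.73 ± 0.12 and Nr4a3 by 1.41 ± 0.13 (edgeR adjusted p = 0.00678 and 9.88e-05), immediate-early nuclear receptors of antigen signalling. Nr4a3 was 33.3 ± 4.34 CPM in control, 12.4 ± 1.10 with Dex, 49.9 ± 2.66 with TGF-β1 and 43.9 ± 3.55 with both. TGF-β1 raised 4 and lowered 1, beside 3.29% of all genes in either direction. The 4 raised are not listed by name for this comparison. The lowered one was Batf, an AP-1 factor of Th17 cells, at -0.77 ± 0.10 (edgeR adjusted p = 0.000849). With both agents 3 were higher and 2 lower. Irf4, the partner of BATF, rose from 183 ± 7.85 to 226 ± 18.6 CPM (edgeR adjusted p = 0.0132) and Jun from 10.6 ± 0.608 to 18.1 ± 1.12 CPM (edgeR adjusted p = 0.00553). Batf fell from 255 ± 11.6 to 128 ± 17.8 CPM (edgeR adjusted p = 6.59e-05) and Nr4a1 by 0.44 ± 0.11 (edgeR adjusted p = 0.0367). The list's median was -0.14 with Dex, 0.25 with TGF-β1 and -0.30 with both.

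Of 9 genes of message and protein turnover, all tested, Trat1 alone was called. It encodes TRIM, an adaptor that promotes transport of CTLA-4 to the surface, and went from 32.2 ± 3.73 CPM in control to 8.73 ± 4.29 with TGF-β1 and 7.77 ± 0.409 with both (edgeR adjusted p = 0.00121 and 0.000474). Ctla4 message itself did not pass in any comparison. Of 18 other checkpoint and costimulatory receptors, 13 were tested. Dex raised 2, Cd226 by 0.68 ± 0.14 and Cd2 by 0.24 ± 0.057, and lowered Cd5 by 0.40 ± 0.062 (edgeR adjusted p = 0.0326, 0.0497 and 0.00584). TGF-β1 raised Nt5e, encoding the ectoenzyme CD73, and lowered Tigit, an inhibitory receptor that competes with CD226. Nt5e was 1.35 ± 0.350 CPM in control, 13.2 ± 3.63 with TGF-β1 and 14.4 ± 1.59 with both (edgeR adjusted p = 3.28e-05 and 1.21e-05 against control). Tigit was 111 ± 6.62 CPM in control, 92.7 ± 11.1 with Dex, 38.4 ± 2.72 with TGF-β1 and 33.7 ± 5.93 with both (edgeR adjusted p = 1.55e-05 and 3.3e-06 for the groups with TGF-β1). With both agents Cd2 was higher, and Cd40lg and Tnfrsf9 lower, so that 2 of 13 were higher and 3 lower. In the CNS comparisons, 0 genes of the 5 lists were called by edgeR.

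Over the 12 culture libraries, the genes whose log2 CPM followed Icos most closely among 4947 candidates were Xbp1 (Pearson r = 0.97), Tsc22d3 (0.97) and Sdcbp2 (0.96). Tsc22d3 encodes GILZ, a glucocorticoid-induced protein. For Btla they were Upp1 (0.96), Sptbn1 (0.96) and Npc2 (0.95), and for Cd28 Mtmr3 (0.93), Ramp3 (0.93) and Gimap6 (0.91). For Lag3 they were Elmo2 (0.89), Nkg7 (0.87) and Trbc2 (0.87), for Pdcd1 Acly (0.88), Ier3 (0.87) and Slc15a3 (0.87), and for Ctla4 Junb (0.84), Pgam1 (0.84) and Lcp1 (0.84). These values describe libraries that share treatment groups, depth and scaling.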

How the data were processed

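RNA of about 2000 sorted cells per library was read as paired ends after a modified SMART-Seq2 preparation, per the labels' protocols. The values used are counts per gene as deposited by the authors, whole numbers without normalization; RSEM 1.3.3 and mm10 are named in the submitters' processing notes. The 3 tables were analysed separately, except for 1 joint fit of the genotype effects. In R 4.3.3, edgeR 4.0.16 (filterByExpr, TMM, robust quasi-likelihood F test, Benjamini-Hochberg adjustment over all genes tested, threshold 0.05) was fitted over all genes; the 12 culture libraries shared 1 fit. Intervals are 95%. Replicates differed by more than counting error (chi-square per degree of freedom 2.79 to 142).

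The 7 receptors, the 5 gene lists and the 7 marker lists were chosen with earlier results of these data known. Named genes were the receptors, up to 3 called list members per direction whose log2 CPM averaged 3 or more, and the 3 genes most correlated with each receptor (averaging log2 CPM 4 or more); 1 called member of the signalling list is not reported here by name. The scripts were tested on simulated data. Alternatives were other scaling, filters, DESeq2 1.42.0, limma 3.58.1 (voom), a replicate term, a myeloid covariate, fewer groups and each library left out. Scaling by T cell markers in culture and in the joint fit, the same without Trac and Trbc2 everywhere, and the myeloid covariate in the joint fit were added after seeing the data. Promoters came from RefSeq, and positions and exon lengths from GENCODE M21.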

Additional observations from a re-analysis of the deposited data

Results flagged for a closer look

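Cd28 in CYP11A1 cKO replicate 1 was 46.4 CPM and stood apart from the other 5 libraries of its group, which lay between 65.4 and 70.5 CPM. It was the 1 library set apart in this way among 28 sets examined, the 7 receptors in each of the 4 CNS groups of 4 to 6 libraries, and chance alone sets apart about 1 in 20.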

How the results depend on the processing

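Icos kept its call in all 17 alternatives of each of its 3 comparisons, and Btla in all 17 for the combination against control and against Dex; Lag3 lost its call in 1 of 17. The cause of the shifts below was not tested unless stated. For Dex against control, 2 receptors instead of 1 were called with a mean count of at least 50, with T cell marker scaling and with that scaling without Trac and Trbc2, the added one being Cd28 (0.35, 0.45 and 0.39). The same 3 settings called 2 instead of 1 for the combination against Dex, again with Cd28 (-0.34, -0.35 and -0.40). For TGF-β1 against control, 1 receptor instead of 0, Btla (-0.36), was called with scaling without Trac and Trbc2. For the combination against TGF-β1, genes called went from 55 to 94 with DESeq2, 89 with T cell marker scaling and 22 with only those groups. For the interaction they went from 0 to 4 without a filter and 6 with DESeq2. For CYP11A1 they went from 18 to 33 without a filter, 63 with DESeq2 and 6 with limma voom, and for GR from 0 to 3 with DESeq2. For the difference of genotype effects they went from 2 to 1 with a mean count of at least 50, 26 with DESeq2, 1 with limma voom and 535 with the myeloid covariate.

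The T cell marker sum was 3225 to 3312 CPM in control and lower with Dex, at 2981 to 3090 CPM. T cell marker scaling moved the median of all genes for Dex from 0.0026 to 0.11. Its calls went from 95 higher and 94 lower to 215 and 53 (145 and 70 without Trac and Trbc2). The same scaling gave 517 and 220 instead of 322 and 324 for the combination against control, and 70 and 19 instead of 32 and 23 against TGF-β1. Without Trac and Trbc2, TGF-β1 gave 165 and 265 instead of 199 and 141, and the combination against Dex 117 and 190 instead of 151 and 120, and 50 and 19 against TGF-β1.

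Leaving out 1 library at a time gave 78 to 129 genes for Dex (189 with all), 219 to 259 for TGF-β1 (340), 425 to 502 for the combination against control (646), 24 to 35 against TGF-β1 (55), 152 to 203 against Dex (271), 0 to 1 for the interaction (0), 9 to 22 for CYP11A1 (18), 0 to 1 for GR (0) and 2 to 6 for the difference of effects (2). Fewer libraries enter these fits. Receptors called stayed at 1 for Dex, 1 against TGF-β1 and 1 against Dex, and ran from 0 to 1 for TGF-β1 and from 2 to 3 for the combination against control. They were 0 for the interaction, CYP11A1, GR and the difference of effects.

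Deviations of same-numbered libraries correlated at -0.14 to -0.042 for CYP11A1, -0.24 to 0.12 for GR and -0.019 to 0.073 in culture. The medians were -0.097, -0.096 and 0.028, against 0.013, -0.0005 and -0.015 for libraries of different number. In culture these values were small, but replicate 2 was the highest library of Lag3 and the lowest of Btla in all 4 groups. Whether same-numbered cultures shared a batch is not given and was not tested. With the replicate number as a block, no count of receptors called changed, and genes called were 2 for the interaction (0), 1 for CYP11A1 (18) and 0 for the difference of effects (2). The edgeR adjusted p of Lag3 then went from 0.328 to 0.117 for Dex and from 0.304 to 0.116 for TGF-β1. Havcr2 had too few counts in culture to be fitted there with the filter.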
